A study of Mus musculus with 8 samples.

Results

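The genes described here are 10 members of the FGF and ERK pathway, chosen by symbol from the 55418 gene symbols in 3 tables of RNA-seq read counts. They are the ligand gene Fgf4, the receptor genes Fgfr1 and Fgfr2, the inhibitor genes Dusp6, Spry2 and Spry4, the ETS factor genes Etv4 and Etv5, and the immediate early genes Egr1 and Fos. All 10 were found in the tables, all had a count in every library, with counts between 42 and 14802, and all passed the filter on low counts in every comparison. The series holds 8 libraries, 2 for each of 4 groups: control, and depletion of Hira, Ubn1 or Ubn2, which encode subunits of the HIRA complex, a chaperone for histone H3.3. The study asked how expression changes when each subunit is depleted.

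All groups are mouse E14 embryonic stem cells (ESCs), an established line whose strain the labels give as 12910la. They were grown on 0.2% gelatin with 15% serum and LIF at 10 ng/ml, and the study's methods call the culture feeder-free. Every group was transfected with 1000 ng of a pSuper puro plasmid and, 24 h later, held in puromycin at 1 µg/ml for 3 days, per the labels. The control carries the genotype wild type in the labels, and the study names an shRNA against luciferase as its control. Each depletion was a transient transfection with one kind of target, so the cells are a selected pool and not a clone. Nothing in the labels says that the libraries of a group came from separate cultures, so the p-values measure only the spread between these libraries, which may be technical. Total counts on genes ran from 19710040 to 32706053 a library, and no member was near the limit of counting. The targeted genes were checked first. Hira was at 89.4 and 97.6 CPM (counts scaled to a common library size) in control and at 10.0 and 10.4 CPM after its depletion. Ubn1 was at 53.0 and 44.1 CPM in control and at 23.8 CPM in both libraries of its depletion, and Ubn2 was at 50.1 and 51.7 CPM and then at 30.1 and 24.6 CPM. The depletions were thus unequal, with changes of -89.2% for Hira, -51.0% for Ubn1 and -46.2% for Ubn2. After Hira depletion Ubn1 was at 68.8 and 67.2 CPM and Ubn2 at 59.7 and 63.4 CPM. Hira was at 105 and 118 CPM after Ubn1 depletion and at 109 and 105 CPM after Ubn2 depletion. Ubn1 was at 42.7 and 40.3 CPM after Ubn2 depletion. The 10 ESC marker genes were all detected, with a summed level of 7090 to 7380 CPM in control, 6310 to 6460 CPM after Hira, 6420 to 6520 CPM after Ubn1 and 6120 to 6250 CPM after Ubn2 depletion.

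FGF4 is a growth factor that ESCs secrete. It binds FGF receptors on the same cells, and the signal passes through the adaptor FRS2 and the RAS, RAF and MEK proteins to the kinase ERK. In ESCs this pathway is known for moving cells out of the naive state and, in the early embryo, for the choice of primitive endoderm over epiblast. Active ERK raises transcription of ETS factors and immediate early genes, and also of DUSP6, a phosphatase that removes phosphates from ERK, and of Sprouty proteins, which dampen receptor signalling. RNA levels of these genes are often read as an output of the pathway, but no phosphorylated ERK was measured in these files.

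The promoters of 3 members are printed because Fgf4 and Fos are the members called after Hira depletion, and Dusp6, together with Fgf4 and Fgfr1, passed the test after both Hira and Ubn2 depletion. RefSeq windows of 300 bases, from 250 before to 50 after a start site, matched 6 of the 10 members. The windows lie at chr7:144861136-144861435 for Fgf4, chr10:99262981-99263280 for Dusp6 and chr12:85473640-85473939 for Fos, all on the plus strand of GRCm38.p6. Each is written 5′ to 3′, and capitals mark matches on either strand. The motifs are GGGCGG (a GC box), TGACGT (the cyclic AMP response element) and CGGAA (a longer form of the core bound by ETS factors). Cores without that leading C were not searched and stay in lower case, so the matches do not count all ETS cores.
Fgf4: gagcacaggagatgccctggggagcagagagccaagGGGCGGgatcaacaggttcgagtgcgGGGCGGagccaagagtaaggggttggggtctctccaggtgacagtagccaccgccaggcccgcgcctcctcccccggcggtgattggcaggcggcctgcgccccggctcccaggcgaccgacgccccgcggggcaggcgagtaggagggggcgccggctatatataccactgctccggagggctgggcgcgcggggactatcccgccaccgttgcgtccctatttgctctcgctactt
Dusp6: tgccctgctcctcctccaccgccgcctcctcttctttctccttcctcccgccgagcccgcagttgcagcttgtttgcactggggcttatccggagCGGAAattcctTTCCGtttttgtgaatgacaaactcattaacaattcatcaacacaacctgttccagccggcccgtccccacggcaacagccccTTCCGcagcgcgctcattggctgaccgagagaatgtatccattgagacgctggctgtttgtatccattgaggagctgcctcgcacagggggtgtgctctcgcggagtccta
Fos: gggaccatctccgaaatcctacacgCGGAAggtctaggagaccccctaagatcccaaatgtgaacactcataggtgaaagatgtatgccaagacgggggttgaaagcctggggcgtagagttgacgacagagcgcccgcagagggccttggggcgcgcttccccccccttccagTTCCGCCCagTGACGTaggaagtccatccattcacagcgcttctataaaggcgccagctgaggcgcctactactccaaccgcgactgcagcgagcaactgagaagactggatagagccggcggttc
The Fgf4 window held 2 matches to GGGCGG and none to the other motifs. The Dusp6 window held 3 matches to CGGAA. The Fos window held 1 match to GGGCGG, 2 to CGGAA and 1 to TGACGT, which is not followed by the CA of the full element. Its GC box overlaps 1 of its CGGAA matches, so that these appear as 1 run of capitals. Among all 32851 RefSeq windows of this length, 35.7% held GGGCGG, 29.9% CGGAA and 7.51% TGACGT. The CArG box, the site of serum response factor, was in 1.63% of windows and in none of those that matched a member. Bases further than 250 before a start site were not searched, and Egr1 had no window. The search therefore does not show that any member lacks this site. A match is a description of the letters and not a bound site.

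Levels of different genes were set side by side per length, as RPKM, which is CPM divided by the exon length in kilobases. In control, Etv5 was highest at 106 ± 9.84 RPKM (SD, n = 2, as for all levels in this paragraph), followed by Fgf4 at 74.2 ± 0.573 RPKM. Spry4 at 60.0 ± 4.06 and Etv4 at 56.6 ± 3.69 RPKM came next, and the libraries of this pair overlapped. Below them were Spry2 at 36.3 ± 0.695, Dusp6 at 23.0 ± 1.09 and Fgfr1 at 10.1 ± 0.723 RPKM. Egr1 at 7.64 ± 2.11 RPKM, Fgfr2 at 5.09 ± 0.0554 RPKM and Fos at 1.17 ± 0.194 RPKM closed the order. All neighbours in the control order other than Spry4 and Etv4 had libraries that did not overlap. After each depletion Etv5 stayed first and Fos last. Fgf4 went from the second place in control to the fourth after Hira depletion, at 49.6 ± 0.872 RPKM, where it overlapped Etv4. It was also in the fourth place after Ubn2 depletion, at 48.4 ± 1.54 RPKM, and stayed second after Ubn1 depletion, at 60.8 ± 1.51 RPKM.

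**Figure D1:**
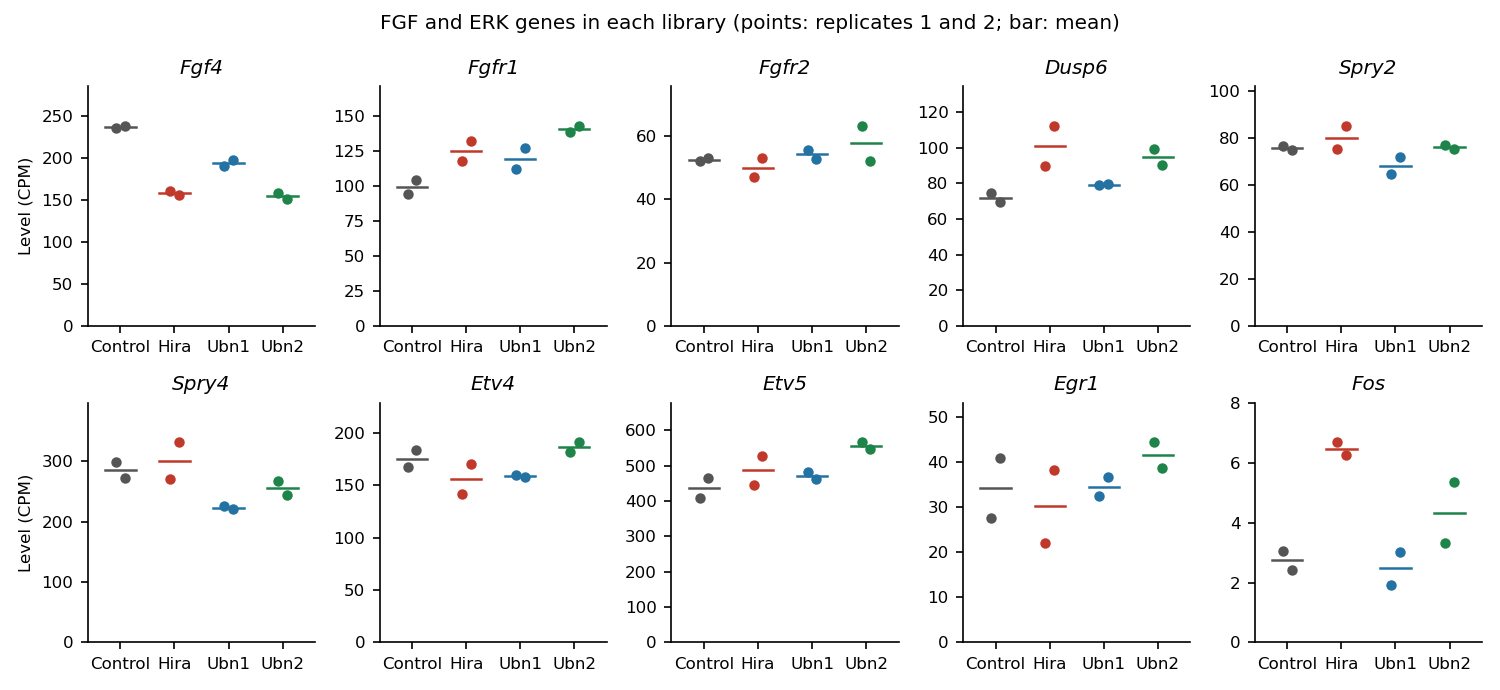
Level of each of the 10 genes in CPM (vertical axes, each from 0) in the 8 libraries. Points are the 2 replicates of a group and bars are group means. Fgf4 sits at 236 and 238 CPM in control and lower in all 6 depleted libraries, whereas Fos sits above both controls in the Hira and Ubn2 libraries.

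A gene was called when its adjusted p was under 0.05 and its fold change over 1.5, the study's thresholds. Adjusted p-values throughout come from quasi-likelihood tests in edgeR on the 4 libraries compared, with the Benjamini-Hochberg method applied over all genes tested. After Hira depletion 1 of 10 members was called higher (Fos) and 1 lower (Fgf4), where 10.8% of all genes tested were called higher and 5.4% lower. By adjusted p alone 3 members were higher (Fos, Dusp6 and Fgfr1) and 1 lower (Fgf4), against 17.6% and 17.3% of all genes. After Ubn1 depletion no member was called in either direction, against 1.53% of genes called higher and 1.56% called lower. By adjusted p alone 0 members were higher and 2 lower there (Fgf4 and Spry4), against 4.14% and 3.62%. After Ubn2 depletion no member was called higher and 1 lower (Fgf4), against 9.59% and 8.75%. By adjusted p alone 3 were higher (Fgfr1, Dusp6 and Etv5) and 1 lower (Fgf4), against 20% and 19.1%. A share of 10 genes moves in steps of 1 gene, so these counts are a description and the results that follow concern single genes. At an unadjusted p under 0.05, edgeR gave 1 member higher and 2 lower after Ubn1 depletion and 4 higher after Ubn2 depletion, and DESeq2 also called 0 in those places. No share of all genes was counted at the unadjusted threshold, and the shares above do not apply to it. The median log2 fold change of the 10 members was 0.06, -0.06 and 0.2 after Hira, Ubn1 and Ubn2 depletion, and that of all genes was 0.011, -0.002 and -0.004. The 3 comparisons share the same control libraries, so they are not independent of each other.

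**Figure D2:**
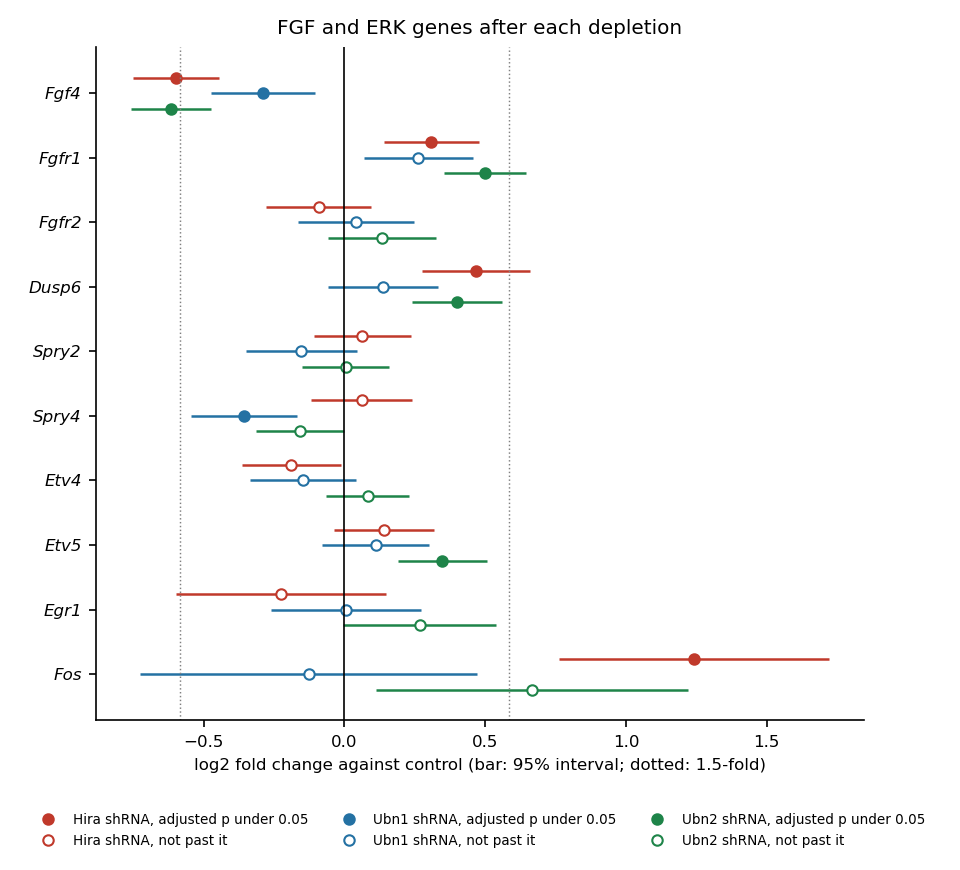
log2 fold change against control of each gene after Hira, Ubn1 and Ubn2 depletion (horizontal axis), with 95% intervals as bars and 1.5-fold as dotted lines. Filled points have an adjusted p under 0.05. Fgf4 lies left of 0 in all 3 comparisons, and only the Fos interval after Hira depletion lies wholly beyond 1.5-fold.

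Fgf4, the ligand, was lower after all 3 depletions. Its level was 236 and 238 CPM in control, 160 and 156 CPM after Hira depletion, 191 and 198 CPM after Ubn1 depletion, and 158 and 151 CPM after Ubn2 depletion. Every depleted library was below both controls, and the Ubn1 libraries stood between the controls and those of the other two depletions. Fgf4 fell by 33.9% after Hira depletion (log2 fold change -0.60 ± 0.07 SE, adjusted p = 2.89e-06) and by 34.8% after Ubn2 depletion (-0.62 ± 0.07, adjusted p = 4.16e-07). Both changes are just past the 1.5-fold threshold, a log2 value of 0.58, and each fell just short of it without the second depleted library (-0.584 and -0.583) while keeping its adjusted p. After Ubn1 depletion Fgf4 fell by 18.2% (-0.29 ± 0.09, adjusted p = 0.0426). That result did not pass without the first control library (adjusted p = 0.333) or the second (adjusted p = 0.321). In bulk libraries, fewer cells that make a transcript and less of it per cell cannot be told apart.

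The depletions were also compared directly for Fgf4. Hira and Ubn2 depletion differed by 0.04 in log2, with a 95% interval from -0.11 to 0.19 (adjusted p = 0.696). Fgf4 was lower after Hira than after Ubn1 depletion by -0.29 ± 0.10 (adjusted p = 0.0315), and lower after Ubn2 than after Ubn1 depletion by -0.33 ± 0.09 (adjusted p = 0.0146). The first of these differences did not pass without either Hira library or the second Ubn1 library, with adjusted p up to 0.193. The other did not pass without either Ubn2 library, with adjusted p up to 0.206.

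The annotation places Fgf4 at chr7:144847367-144865243 on the plus strand of GRCm38, a span that contains the RefSeq window printed above, beside the ligand genes Fgf3 and Fgf15. These neighbours were chosen after their values were seen. Distances are counted from the ends of the annotated Fgf4 span, and the RefSeq window lies inside it, further from Fgf3. Fgf3, a ligand with roles in the developing ear and hindbrain, ends 2.9 kb before that span. Its level was 1.95 and 3.71 CPM in control, 3.24 and 3.46 CPM after Hira depletion, 1.82 and 1.61 CPM after Ubn1 depletion, and 1.01 and 0.765 CPM after Ubn2 depletion. Only the Ubn2 and Ubn1 libraries were below both controls, and the change passed the test after Ubn2 depletion alone (-1.69 ± 0.37, adjusted p = 0.000958). It did not pass there without the second control library, when adjusted p reached 0.0767.

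Fgf15, which encodes the mouse counterpart of human FGF19, lies 31.3 kb from Fgf4. It was at 10.3 and 10.1 CPM in control, 4.42 and 3.94 CPM after Hira depletion, 7.43 and 6.34 CPM with Ubn1 depleted, and 2.02 and 1.89 CPM after Ubn2 depletion. All 6 depleted libraries were below both controls. The log2 change of Fgf15 was -1.30 ± 0.19 after Hira depletion (adjusted p = 1.84e-05), -0.57 ± 0.18 after Ubn1 depletion (adjusted p = 0.0433) and -2.38 ± 0.21 after Ubn2 depletion (adjusted p = 1.66e-08). The antisense genes Gm26793 and Gm39119 overlap Fgf15, and the strand setting of the counting is not given in the sources used here, so reads of the 2 strands cannot be told apart.

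On the far side, Ccnd1, which encodes cyclin D1 and is an ERK target, lies 64.7 kb from Fgf4. Its level was 88.5 and 98.1 CPM in control and 171 and 149 CPM after Ubn2 depletion. It rose there by 0.78 ± 0.08 in log2 (adjusted p = 7.41e-08), was lower after Hira depletion (-0.28 ± 0.10, adjusted p = 0.0286) and gave 0.05 ± 0.09 after Ubn1 depletion (adjusted p = 0.807). LTO1, which overlaps Ccnd1 on the opposite strand, gave 0.74 ± 0.08 after Ubn2 depletion (adjusted p = 4.5e-07). Without the strand setting, reads of LTO1 and Ccnd1 over the overlap cannot be told apart, so these rises may not be separate. The genes around Fgf4 thus did not all move one way. Fgf3, Fgf4 and Fgf15 were lower after Ubn2 depletion while LTO1 and Ccnd1 were higher.

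**Figure D3:**
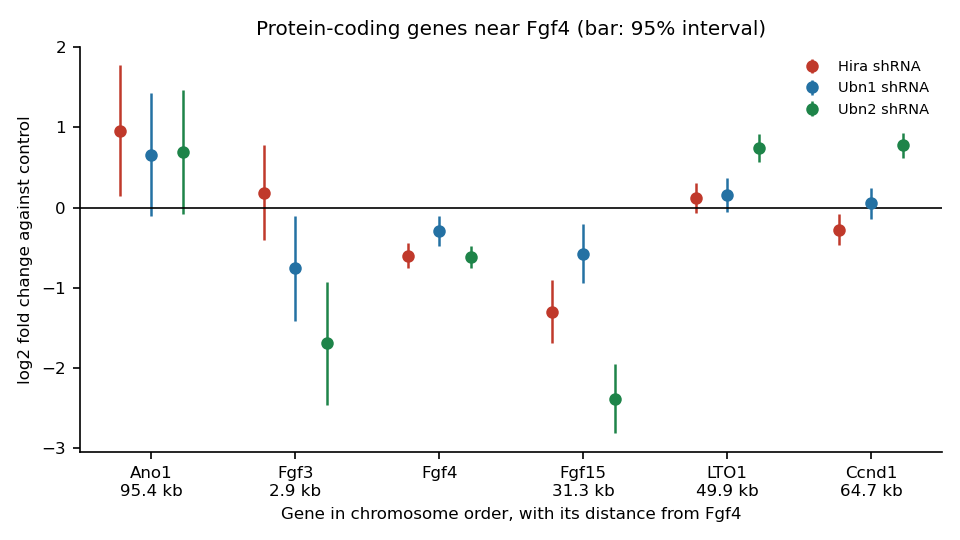
log2 fold change against control (vertical axis) of the protein-coding genes tested within 100 kb of Fgf4, in chromosome order, with 95% intervals as bars. The distance from the annotated span of Fgf4 stands under each name. After Ubn2 depletion the 3 ligand genes lie below 0 and LTO1 and Ccnd1 above it.

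Of the 2 receptor genes among the members, Fgfr1 rose after Hira and Ubn2 depletion and Fgfr2 did not pass the test after any depletion. Fgfr1, the FGF receptor gene with the higher level in these cells, lies at chr8:25513654-25575718. It was at 94.2 and 104 CPM in control, 118 and 132 CPM after Hira depletion, 112 and 127 CPM after Ubn1 depletion, and 138 and 143 CPM after Ubn2 depletion. All 6 depleted libraries were above both controls, with the Ubn2 libraries highest. Fgfr1 rose by 0.50 ± 0.07 in log2 after Ubn2 depletion (adjusted p = 9.24e-06) and by 0.31 ± 0.08 after Hira depletion (adjusted p = 0.0055). After Ubn1 depletion the value was 0.26 ± 0.10 (adjusted p = 0.0859). The Hira result did not pass without the first control library (adjusted p = 0.0952) or the second Hira library (adjusted p = 0.0633). An antisense gene, Gm16159, shares exon bases with Fgfr1. It was at 10.3 and 9.96 CPM in control and at 10.4 to 14.2 CPM in the 6 depleted libraries, all above both controls. Since the strand setting of the counting is not given, reads of Fgfr1 and Gm16159 over the shared bases cannot be told apart.

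Fgfr2, the second receptor, was at 52.2 and 53.0 CPM in control, 47.0 and 53.1 CPM after Hira depletion, 55.5 and 52.9 CPM after Ubn1 depletion, and 63.2 and 52.3 CPM after Ubn2 depletion. Each depleted group overlapped the controls. The log2 fold changes did not pass the test, with 95% intervals from -0.28 to 0.10 after Hira depletion, from -0.16 to 0.25 after Ubn1 depletion and from -0.06 to 0.33 after Ubn2 depletion. The annotated span of Fgfr2, chr7:130162451-133123350 on the minus strand, covers 69 other genes, and it shares exon bases with Ctbp2, so some reads could belong to either gene.

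Among the inhibitors, Dusp6 was higher after Hira and Ubn2 depletion while the Sprouty genes were not. Dusp6, at chr10:99263231-99267489, was at 74.4 and 69.6 CPM in control, 89.6 and 112 CPM after Hira depletion, 79.0 and 79.6 CPM after Ubn1 depletion, and 99.4 and 90.3 CPM after Ubn2 depletion. All 6 depleted libraries were above both controls, and the Ubn1 libraries were the closest to them. Dusp6 rose by 0.47 ± 0.09 in log2 after Hira depletion (adjusted p = 0.000502) and by 0.40 ± 0.08 after Ubn2 depletion (adjusted p = 0.000291). Both stayed past the adjusted p threshold with each single library left out, although the Hira value dropped to 0.296 without its second library. After Ubn1 depletion the value was 0.14 ± 0.10 (adjusted p = 0.428). Directly compared, Dusp6 was higher after Hira than after Ubn1 depletion (0.35 ± 0.11, adjusted p = 0.0154), but not without the second Hira library (0.182, adjusted p = 0.418). Hira and Ubn2 depletion differed by 0.09, with an interval from -0.11 to 0.30, and Ubn2 and Ubn1 depletion by 0.26 ± 0.09 (adjusted p = 0.0557).

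Spry4, the more abundant Sprouty gene, was at 299 and 271 CPM in control, 271 and 331 CPM after Hira depletion, 225 and 220 CPM after Ubn1 depletion, and 268 and 243 CPM after Ubn2 depletion. The Ubn1 libraries were the lowest and the Hira libraries overlapped the controls. Spry4 fell by 0.36 on the log2 scale after Ubn1 depletion (SE 0.09, adjusted p = 0.0135). This did not pass without the first control library (adjusted p = 0.363) or the second (adjusted p = 0.0691). After Hira and Ubn2 depletion the values were 0.06 (adjusted p = 0.633) and -0.16 ± 0.07 (adjusted p = 0.0995). The direct comparison of Hira with Ubn1 depletion gave 0.44 ± 0.11 (adjusted p = 0.00312), which without the second Hira library was 0.289 (adjusted p = 0.15).

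Spry2 was at 76.7 and 74.6 CPM in control, 75.1 and 85.0 CPM after Hira depletion, 64.6 and 71.6 CPM after Ubn1 depletion, and 76.7 and 75.1 CPM after Ubn2 depletion. Its Ubn1 libraries were below both controls and the other groups overlapped them. No change passed the test, with log2 values of 0.06, -0.15 and 0.01 after Hira, Ubn1 and Ubn2 depletion and adjusted p between 0.375 and 0.965.

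The ETS factor genes Etv4 and Etv5 encode related transcription factors of the PEA3 family that FGF signalling induces. Etv5, the most abundant member per length, was at 408 and 465 CPM in control, 447 and 528 CPM after Hira depletion, 482 and 463 CPM after Ubn1 depletion, and 566 and 547 CPM after Ubn2 depletion. Only the Ubn2 libraries were both above the controls. Etv5 rose there by 0.35 ± 0.08 in log2 (adjusted p = 0.00093), and the values after Hira and Ubn1 depletion were 0.14 (adjusted p = 0.215) and 0.11 (adjusted p = 0.527). The Hira value passed at 0.255 (adjusted p = 0.0101) without the first Hira library and was 0.0116 (adjusted p = 0.937) without the second.

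Etv4 was at 168 and 184 CPM in control, 142 and 170 CPM after Hira depletion, 160 and 158 CPM after Ubn1 depletion, and 182 and 191 CPM after Ubn2 depletion. The Hira and Ubn2 libraries overlapped the controls and the Ubn1 libraries were below them. No change from control passed the test: the values were -0.19 ± 0.09 (adjusted p = 0.0933), -0.15 (adjusted p = 0.366) and 0.08 (adjusted p = 0.374) after Hira, Ubn1 and Ubn2 depletion. The Hira value passed at -0.326 (adjusted p = 0.00233) without the second Hira library and was -0.0642 (adjusted p = 0.641) without the first. Etv4 was lower after Hira than after Ubn2 depletion (-0.25 ± 0.09, adjusted p = 0.0347), where Etv5 gave -0.19 with an interval from -0.37 to 0.003 (adjusted p = 0.115). The Etv4 difference did not pass without the first Hira library (-0.123, adjusted p = 0.322) or the second Ubn2 library (-0.214, adjusted p = 0.128).

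The immediate early genes, which cells switch on within minutes of ERK activation without new protein synthesis, split. Fos encodes a subunit of the AP-1 transcription factor and lies at chr12:85473890-85477273. It was at 3.07 and 2.42 CPM in control, from 63 and 77 counts, and at 6.69 and 6.26 CPM after Hira depletion, from 221 and 132 counts. The Ubn1 libraries were at 1.92 and 3.03 CPM and the Ubn2 libraries at 3.31 and 5.35 CPM. The Hira libraries were the highest of all 8, the Ubn2 libraries were above both controls, and the Ubn1 libraries overlapped them. Fos rose 2.36-fold after Hira depletion (log2 fold change 1.24 ± 0.23, adjusted p = 0.000276). After Ubn2 depletion the value was 0.67 ± 0.27 (adjusted p = 0.0526) and after Ubn1 depletion -0.13 ± 0.29 (adjusted p = 0.853). Hira exceeded Ubn1 depletion by 1.39 ± 0.26 (adjusted p = 0.000225), and Hira and Ubn2 depletion differed by 0.60, with an interval from 0.09 to 1.10 (adjusted p = 0.0623). The Ubn2 value was 0.29 without its second library and 0.98 without its first, where it passed, so its side of the threshold depends on single libraries.

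Egr1, a zinc finger factor, was at 27.6 and 40.9 CPM in control, 22.2 and 38.2 CPM after Hira depletion, 32.5 and 36.8 CPM after Ubn1 depletion, and 44.4 and 38.8 CPM after Ubn2 depletion. All groups overlapped the controls, whose own libraries were far apart. The log2 values were -0.23 ± 0.18 (adjusted p = 0.353), 0.01 (adjusted p = 0.988) and 0.27 ± 0.13 (adjusted p = 0.112) after Hira, Ubn1 and Ubn2 depletion. Egr1 was lower after Hira than after Ubn2 depletion (-0.48 ± 0.17, adjusted p = 0.045), a difference that was -0.117 (adjusted p = 0.5) without the first Hira library and -0.898 (adjusted p = 3.76e-11) without the second. Against control, Egr1 after Hira depletion was -0.658 (adjusted p = 1.62e-05) without the second Hira library and 0.128 (adjusted p = 0.483) without the first. It was -0.477 (adjusted p = 0.00211) without the first control library and 0.0967 (adjusted p = 0.675) without the second, so leaving out any 1 of the 4 libraries changed its sign or its side of the threshold. After Ubn2 depletion Egr1 ranged from 0.0181 (adjusted p = 0.925) without the first control library to 0.593 (adjusted p = 2.63e-05) without the second, which is past 1.5-fold, and was 0.363 (adjusted p = 0.014) without the second Ubn2 library.

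Heat shock genes were read beside Fos. Hspa1a, an inducible chaperone gene, was at 3.41 and 2.36 CPM in control, 10.7 and 7.73 CPM after Hira depletion, 1.78 and 2.61 CPM after Ubn1 depletion, and 6.16 and 7.85 CPM after Ubn2 depletion. The log2 change of Hspa1a was 1.70 ± 0.23 after Hira depletion (adjusted p = 9.54e-06), 1.30 ± 0.23 after Ubn2 depletion (adjusted p = 0.000152) and -0.37 ± 0.30 after Ubn1 depletion (adjusted p = 0.515). Of the 8 heat shock genes listed, 2 were called higher and 1 lower after Hira depletion, where 10.8% and 5.4% of all genes were. After Ubn2 depletion 3 were called higher and 0 lower, against 9.59% and 8.75%. After Ubn1 depletion 0 were called, against 1.53% and 1.56%. Their summed level was 7730 to 8140 CPM in control, 6880 to 7070 CPM after Hira, 7490 to 8210 CPM after Ubn1 and 9070 to 9180 CPM after Ubn2 depletion. Hspa1a and Hspa1b are near-identical copies, so the split of reads between them is uncertain. The part of these genes in the Fos result was not tested.

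**Figure D4:**
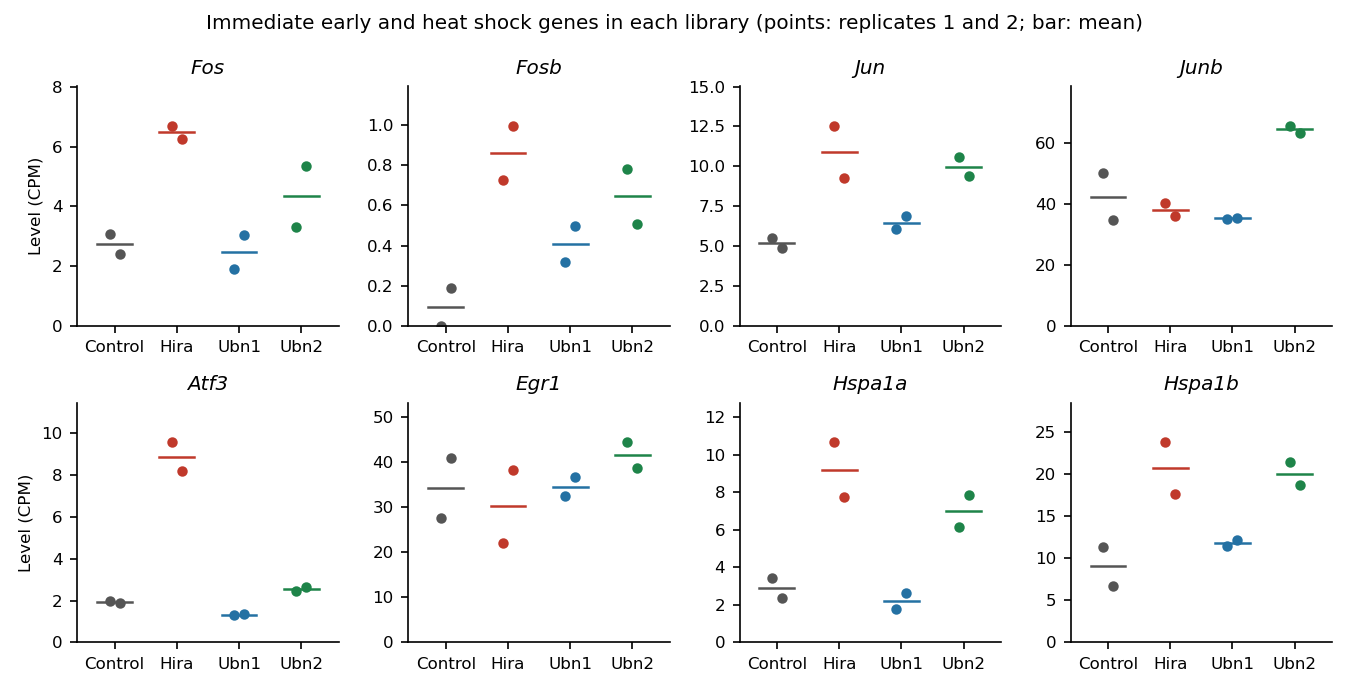
Levels in CPM (vertical axes, each from 0) of immediate early and heat shock genes in the 8 libraries. Points are the 2 replicates of a group and bars are group means. Fos, Fosb, Jun, Hspa1a and Hspa1b are above both controls in the Hira and Ubn2 libraries, whereas Egr1 overlaps the controls in every group.

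Counted by library, after Hira depletion 3 members had both libraries above both controls and 1 below, where 35.6% and 31.4% of all genes tested did. After Ubn1 depletion 2 were above and 4 below, against 26.5% and 24.8% of all genes. After Ubn2 depletion 4 were above and 2 below, against 34.7% and 34.9%. The second Hira library had the higher level for 8 of the 10 members, the exceptions being Fgf4 and Fos, and the median gap to the first was 0.21 in log2. Over all genes the second library was the higher for 51.7%, with a median gap of 0.008, and 32.4% of genes had a gap at least as wide. The gap was 0.79 for Egr1, 0.33 for Dusp6, 0.29 for Spry4, 0.26 for Etv4 and 0.24 for Etv5. The members' median gap was 0.02, 0.03 and -0.06 between the libraries of the control, Ubn1 and Ubn2 groups. The source of these gaps was not tested.

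In the direct comparisons of depletions, calls were counted in either direction. The targets were depleted to unequal degrees, and the degree of depletion cannot be told apart here from the subunit depleted. With so short a list of members, these counts are a description and do not show a difference from all genes. Between Hira and Ubn2 depletion 0 members were called, against 17.6% of all genes, and 2 passed by adjusted p alone (Etv4 and Egr1), against 35.8%. Between Hira and Ubn1 depletion 1 was called (Fos), against 12.7%, and 4 passed by adjusted p alone (Fgf4, Dusp6, Fos and Spry4), against 24.3%. Between Ubn2 and Ubn1 depletion 0 were called, against 8.7%, and 1 passed by adjusted p alone (Fgf4), against 16.6%. At an unadjusted p under 0.05, edgeR gave 2 members higher and 3 lower for Hira against Ubn2, and 7 higher and 1 lower for Ubn2 against Ubn1. DESeq2 called 0 in both. The share of all genes under that unadjusted threshold was not counted, so these member counts cannot be set against all genes.

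A wider list of 96 other genes of the pathway was read in the same fits. After Hira depletion 10 of the 86 tested were called higher and 6 lower, where 10.8% and 5.4% of all genes were. After Ubn1 depletion 0 of 83 were called higher and 3 lower, against 1.53% and 1.56%. After Ubn2 depletion 15 of 85 were called higher and 9 lower, against 9.59% and 8.75%. The counts by role in the paragraphs that follow are read against the same shares. Their median log2 fold changes were 0.12, 0.03 and 0.18. Of the other 17 ligand genes 10 were tested, among which 1 was called higher (Fgf18) and 1 lower (Fgf15) after Hira depletion, and 1 higher (Fgf1) and 3 lower (Fgf3, Fgf8 and Fgf15) after Ubn2 depletion. Of these ligands, Fgf8 was near the limit of counting, with 5 counts in each Ubn2 library and 17 and 20 counts in control. Its call was lost with any 1 of the 4 libraries left out (adjusted p from 0.141 to 0.286).

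Among 15 receptor and heparan sulfate genes tested, 2 were called higher and 1 lower after Hira depletion, and 4 higher and 3 lower after Ubn2 depletion. Heparan sulfate chains hold FGFs at their receptors. Sdc4, a cell surface carrier of these chains, rose from 44.3 and 42.8 CPM in control to 77.3 and 71.1 CPM after Hira depletion (0.76 ± 0.09, adjusted p = 1.23e-06) and to 86.2 and 86.4 CPM after Ubn2 depletion (0.99 ± 0.08, adjusted p = 4.14e-09). Gpc4, a glypican, rose from 15.2 and 18.2 CPM to 53.5 and 47.7 CPM after Ubn2 depletion (1.59 ± 0.11, adjusted p = 6.04e-10). Gpc3, another glypican, fell from 35.4 and 40.8 CPM to 20.7 and 26.2 CPM after Ubn1 depletion (-0.70 ± 0.12, adjusted p = 0.000264). Of the other receptor genes, Fgfr3 was called lower, with log2 values of -0.97 ± 0.21 after Hira depletion (adjusted p = 0.00142) and -1.01 ± 0.23 after Ubn2 depletion (adjusted p = 0.00123). Fgfr4 was called higher after Ubn2 depletion, from 7.45 and 7.61 CPM in control to 11.8 and 13.3 CPM (0.735 ± 0.16, adjusted p = 0.000873).

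None of the 10 adaptor genes was called after any depletion. In the cascade itself, 0 of 14 genes were called higher and 2 lower after Hira depletion, both of them RAS genes. Nras was at 154 and 140 CPM in control and at 85.4 and 83.8 CPM after Hira depletion (-0.81 ± 0.08, adjusted p = 1.46e-07), and Eras, an ESC-expressed RAS gene, gave -0.83 ± 0.11 (adjusted p = 5.6e-06). After Ubn2 depletion only Map2k2, which encodes the kinase MEK2, was called among the 14 (0.60 ± 0.07, adjusted p = 9.95e-07). Mapk3, which encodes ERK1, was lower after Hira depletion (-0.31 ± 0.08, adjusted p = 0.00446) and Ubn2 depletion (-0.52 ± 0.07, adjusted p = 8.53e-06), in both cases short of 1.5-fold.

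Among the other inhibitors, 1 of 15 was called higher and 1 lower after Hira depletion, and 2 of 14 higher and 1 lower after Ubn2 depletion. Dusp9, an ERK phosphatase abundant in ESCs, went opposite to Dusp6. It was at 182 and 180 CPM in control, 109 and 102 CPM after Hira depletion, 137 and 164 CPM after Ubn1 depletion, and 95.3 and 106 CPM after Ubn2 depletion, so all 6 depleted libraries were below both controls. The log2 change of Dusp9 was -0.80 ± 0.08 after Hira depletion (adjusted p = 1.2e-07) and -0.85 ± 0.07 after Ubn2 depletion (adjusted p = 5.54e-09).

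Of the other immediate early and ERK target genes, 6 of 22 were called higher and 1 lower after Hira depletion, 0 of 21 higher and 2 lower after Ubn1 depletion, and 7 of 22 higher and 2 lower after Ubn2 depletion. The median was 0.17, 0.03 and 0.29. Atf3, a stress-responsive factor of the AP-1 group, rose from 2.00 and 1.89 CPM to 9.57 and 8.21 CPM after Hira depletion (2.19 ± 0.22, adjusted p = 2.97e-07), and gave 0.39 (adjusted p = 0.304) after Ubn2 depletion. Btg2, an antiproliferative gene, rose from 41.2 and 40.6 CPM to 90.4 and 91.2 CPM after Ubn2 depletion (1.15 ± 0.08, adjusted p = 4.7e-10). Jun, the partner of Fos in AP-1, was named after its values were seen. It rose by 1.07 ± 0.19 after Hira depletion (adjusted p = 0.000192) and by 0.95 ± 0.18 after Ubn2 depletion (adjusted p = 0.000233), and gave 0.33 (adjusted p = 0.369) after Ubn1 depletion. Fosb, also named afterwards, had 0 and 6 counts in control and 24 and 21 after Hira depletion, too few for a firm size.

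The 2 genes of this list called after Ubn1 depletion were Ier3 and Maff. Ier3, an immediate early gene, was at 25.4 and 12.7 CPM in control and at 6.61 and 8.07 CPM after Ubn1 depletion (-1.36 ± 0.21, adjusted p = 4.99e-05), and its control libraries were themselves far apart: without the first control library the value was -0.79 (adjusted p = 0.0214). Maff, a small MAF factor, was at 21.6 and 25.1 CPM and then at 13.4 and 17.0 CPM (-0.62 ± 0.14, adjusted p = 0.00405), which did not pass without the second control library (adjusted p = 0.106).

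**Figure D5:**
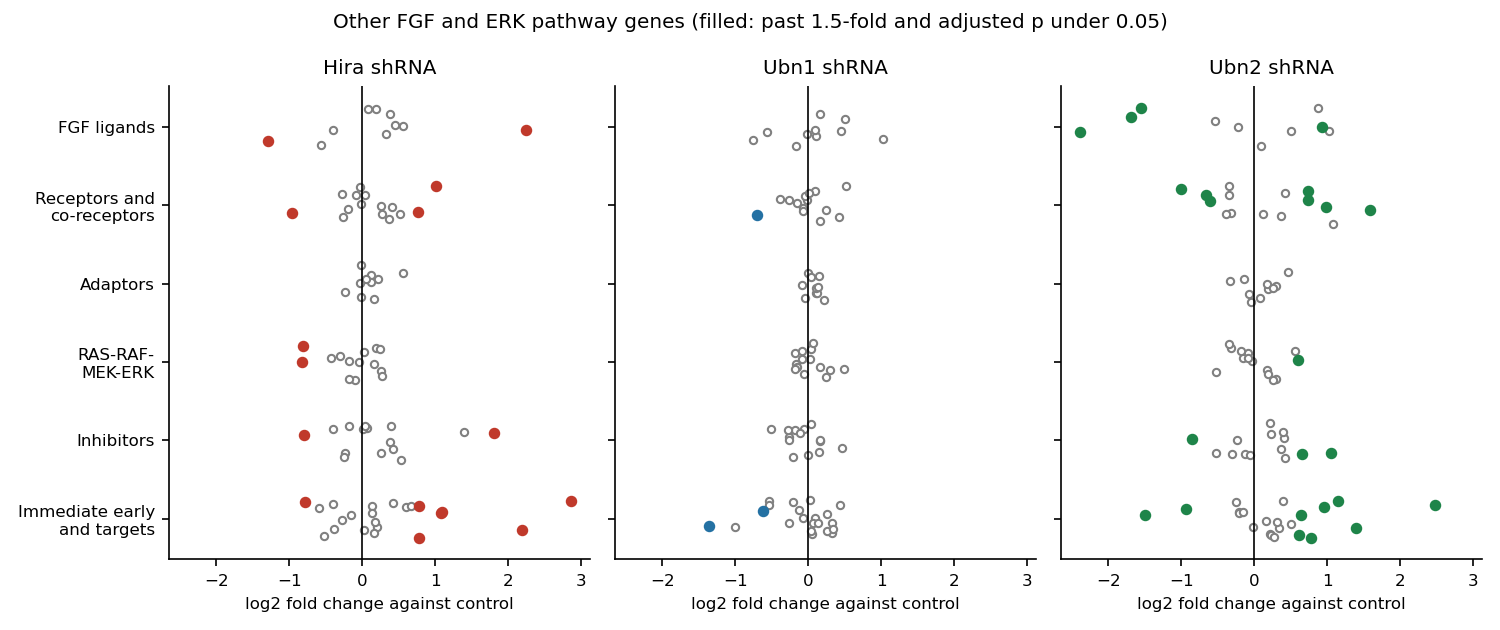
log2 fold change against control (horizontal axes) of the other pathway genes tested, by role, after each depletion. Filled points passed an adjusted p under 0.05 and 1.5-fold, and vertical scatter within a role only separates points. Filled points lie on both sides of 0 after Hira and Ubn2 depletion, and 3 lie left of 0 after Ubn1 depletion.

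Markers of other cell types moved in some of the same comparisons. Of all genes tested, 10.8% were called higher and 5.4% lower after Hira depletion. The shares were 1.53% and 1.56% after Ubn1 and 9.59% and 8.75% after Ubn2 depletion. The summed level of 8 neural markers was 128 to 135 CPM in control, 272 to 283 CPM after Hira, 167 to 188 CPM after Ubn1 and 132 to 137 CPM after Ubn2 depletion, with 4 of 6 tested called higher after Hira depletion, 1 higher after Ubn1 depletion, and 2 higher and 1 lower after Ubn2 depletion. The rise after Ubn1 depletion was mostly Tubb3, which averaged 88.95 CPM in control and 137 CPM there. Nes averaged 15.9 and 17.3 CPM, whereas Nefl averaged 13.1 and 10.1 CPM and Map2 6.57 and 5.36 CPM. Of the ESC markers summed above, 2 of 10 were called lower after Ubn2 depletion and none after the other depletions. The summed level of 9 trophoblast markers was 75.7 to 77.6 CPM in control, 116 to 142 CPM after Hira, 68.7 to 75.4 CPM after Ubn1 and 61.5 to 65.8 CPM after Ubn2 depletion. Most of the rise after Hira depletion was in the keratin genes Krt8 and Krt18. Their averages in control and after Hira depletion were 23.9 and 52.4 CPM, and 13.1 and 32.6 CPM. Those of the other markers were 8.97 and 12.6 CPM for Eomes, 25.35 and 26.64 CPM for Tfap2c, 4.62 and 1.725 CPM for Ascl2, and 0.11 and 0.94 CPM for Cdx2, with Hand1, Gata3 and Elf5 also low. Of 7 tested, 4 were called higher and 1 lower after Hira depletion and 1 higher and 3 lower after Ubn2 depletion, and 0 of 5 higher and 1 lower after Ubn1 depletion. Primitive endoderm markers summed to 276 to 279 CPM in control, 327 to 335 CPM after Hira, 281 to 294 CPM after Ubn1 and 310 to 322 CPM after Ubn2 depletion. Of 9 tested, 1 (Sox17) was called higher after Hira depletion and 2, Gata6 and Pdgfra, lower after Ubn1 depletion. Sparc, Col4a1 and Lama1 made up most of the sum, and none of them was called. Sparc averaged 142 CPM in control and 179 CPM after Hira depletion. The averages there were 3.42 and 2.73 CPM for Gata6, 3.56 and 3.37 CPM for Gata4, and 0.662 and 1.52 CPM for Sox17. Primed epiblast markers summed to 91.4 to 106 CPM in control, 94.8 to 113 CPM after Hira, 99.8 to 105 CPM after Ubn1 and 125 to 126 CPM after Ubn2 depletion. Of the 7 tested, 2 were called higher and 1 lower after Hira depletion, 1 higher and 1 lower after Ubn1 depletion, and 1 higher and 3 lower after Ubn2 depletion. Of 8 fibroblast markers, Col3a1, Postn, Dcn and Lum were at 0 in control and Ubn1 libraries, and Col3a1 was at 6.76 and 4.13 CPM after Ubn2 depletion. The summed level of that list was 39.4 to 43.1 CPM in control, 39.4 to 44.2 CPM after Hira, 35.1 to 45.4 CPM after Ubn1 and 31.6 to 35.6 CPM after Ubn2 depletion, with 1 of 3 tested called higher and 1 lower after Hira, 0 of 3 after Ubn1, and 3 of 6 higher and 2 lower after Ubn2 depletion. Their part in the results above was not tested.

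The genes whose log2 CPM followed Fgf4 most closely over the 8 libraries, among 12191 genes averaging at least 5 CPM, were Gins1 (r = 0.989), Ints10 (r = 0.989) and Atp5f1 (r = 0.988). For Fos they were Aebp1 (r = 0.984), Gm15998 (r = 0.967) and Smyd2 (r = 0.96). These are descriptions over 8 points in 4 groups, which share depth and condition, and many genes that differ between the groups give a high r in this design.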

How the data were processed

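RNA was measured in 8 libraries of E14 ESCs. Per the labels and methods, the authors used Trim Galore for trimming, STAR for alignment against GRCm38 and featureCounts for counting; their versions and the strand setting are not given in the sources used here. The deposited values are raw read counts without normalization, in 3 tables, and the control counts did not differ between them (0 values), so they were used once. Of 55418 symbols, 21460 had no count. Library totals ran from 19710040 to 32706053. Intervals cover the spread between libraries.

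Groups came from the labels. Counts were tested with edgeR 4.0.16 in R 4.3.3 (filterByExpr, TMM with factors of 0.97 to 1.06, quasi-likelihood fit, Benjamini-Hochberg adjustment over all genes tested), with only the 2 groups compared in a fit. The SE is the log2 fold change divided by the square root of F. CPM is on TMM-scaled totals. RPKM divides CPM by the union exon length in GENCODE M21, which may not be the authors' annotation. With 2 libraries a group, the smallest two-sided exact permutation p is 0.333, so no single-gene permutation test was run.

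The members and lists were chosen with earlier results of these data known. Named genes are all 10 members, up to 4 called genes of the wider list per comparison with control by smallest adjusted p, and 3 genes most correlated with each called member. Others are said to be named afterwards, as were Fgfr3, Fgfr4, Gm16159, Eras, Map2k2, Mapk3, the cell type markers named singly and the ligands named with counts. Same-numbered libraries correlated between -0.12 and 0.11 in their deviations from group means (pseudocount 0.5), so the replicate numbers were not taken to pair the libraries. Alternatives were the Wald test of DESeq2 1.42.0, DESeq2 size factors in edgeR, a replicate block with the pair of groups or with all 8 libraries, one fit of all 8 without it, a filter of 10 counts per library or no filter, adjusted p alone, and leaving out each library. The fit was tested on simulated data. At a log2 fold of 1.5, 98% of 100 changed genes were called among 18521 for Hira against control. The shares were 94% among 18342 for Ubn1 and 91% among 17921 for Ubn2. At a log2 fold of 0.985 they were 87%, 81% and 87%. No smaller fold was simulated, so the shares do not cover changes of the size seen in most members. Python 3.11.15 was run with pandas 2.3.3, numpy 2.4.6, matplotlib 3.10.9 and scipy 1.17.1. Promoter windows are from RefSeq on GRCm38.p6.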

Additional observations from a re-analysis of the deposited data

Results flagged for a closer look

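These results are direct comparisons in which depletions differed from each other, each by edgeR's quasi-likelihood test on the depleted libraries alone. No explanation was weighed. Between Hira and Ubn2 depletion, the log2 difference was -0.25 for Etv4 and -0.48 for Egr1. Between Hira and Ubn1 depletion it was -0.29 for Fgf4, 0.35 for Dusp6, 1.39 for Fos and 0.44 for Spry4, and between Ubn2 and Ubn1 depletion it was -0.33 for Fgf4. Apart from Fos, which ranged from 1.08 to 1.76 with single libraries left out, these differences depend on single libraries, as given with each gene above. Etv4 came to -0.123, Egr1 to -0.117, Dusp6 to 0.182 and Spry4 to 0.289 in the fit nearest 0. For Fgf4 these values were -0.268 against Ubn1 for Hira and -0.292 for Ubn2.

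Among the named genes of the wider pathway list, Hira against Ubn2 depletion gave -0.93 for Btg2, 1.82 for Atf3, -0.21 for Sdc4, -0.47 for Nras, 1.09 for Maff, 0.92 for Ier3, -0.57 for Gpc4 and 0.66 for Gpc3. Hira against Ubn1 depletion gave 2.75 for Atf3, 0.54 for Sdc4, -0.70 for Nras, 0.78 for Maff, 0.78 for Ier3, 0.51 for Gpc4, 0.70 for Gpc3 and -0.51 for Dusp9. Ubn2 against Ubn1 depletion gave 0.82 for Btg2, 0.75 for Sdc4, 1.07 for Gpc4 and -0.58 for Dusp9. Without the first Hira library, Ier3 was 0.387 (adjusted p = 0.213) against Ubn2 and 0.247 (adjusted p = 0.578) against Ubn1 depletion, so both differences rest on that library. The largest adjusted p among these was 0.0451, for Sdc4 between Hira and Ubn2 depletion.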

How the results depend on the processing

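Outside leave-one-out fits, 200 of the 210 member log2 fold changes against control kept their direction and side of the threshold, 8 crossed to past it and 2 reversed near 0; between depletions 194 of 210 did, 14 crossed to past it and 2 lost it. Of the leave-one-out fits, in which a lone library is assumed to vary like the other group, 90 of 120 and 83 of 120 did. The cause was not tested, except that adjusted p alone drops the fold threshold. Fos had the lowest counts of the members.

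Against control, members called higher and lower were 3 and 1 (Hira), 0 and 2 (Ubn1) and 3 and 1 (Ubn2) by adjusted p alone, and other pathway genes 20 and 16, 4 and 5, and 32 and 16. Fgf4 after Hira depletion fell short of 1.5-fold with all 8 libraries in one fit, with or without the replicate block, which left 0 members called lower. Fos was called after Ubn2 depletion with no filter, with at least 10 counts and with the replicate block, giving 1 member higher each time. Fos was likewise the 1 member called higher between Hira and Ubn2 depletion with no filter and with the replicate block, and 1 between Ubn2 and Ubn1 depletion with no filter, with all 8 libraries and with the block. By adjusted p alone, members were 2 lower for Hira against Ubn2, 3 higher and 1 lower for Hira against Ubn1, and 1 lower for Ubn2 against Ubn1. Other pathway genes were then 17 lower for Hira against Ubn2, 21 higher and 11 lower for Hira against Ubn1, and 6 lower for Ubn2 against Ubn1. DESeq2's Wald test gave 9 higher for Hira against Ubn2, 3 lower for Hira against Ubn1 and 2 lower for Ubn2 against Ubn1, where DESeq2 size factors and the replicate block also gave 2. The block changed no other count of members or pathway genes by over 1.5 times.

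With single libraries left out, members called ranged from 1 to 2 higher after Hira depletion, and after Ubn2 depletion from 0 to 1 higher and from 0 to 1 lower. Between Hira and Ubn2 they ranged from 0 to 1 both ways, between Hira and Ubn1 from 0 to 1 lower, and between Ubn2 and Ubn1 from 0 to 1 higher. Other pathway genes ranged from 0 to 2 higher and 2 to 5 lower after Ubn1 depletion, from 9 to 15 higher and 6 to 10 lower between Hira and Ubn2, and from 1 to 3 lower between Ubn2 and Ubn1. With no filter, Egr1 after Ubn1 depletion was -0.000425 and Spry2 after Ubn2 depletion -0.0147. Members that changed sign without a library ranged, after Hira depletion, from -0.0306 to 0.15 (Spry2), -0.0923 to 0.196 (Spry4) and -0.658 to 0.128 (Egr1). After Ubn1 depletion they ranged from -0.0031 to 0.0757 (Fgfr2), -0.238 to 0.323 (Egr1) and -0.504 to 0.149 (Fos), and after Ubn2 depletion from -0.00781 to 0.265 (Fgfr2) and -0.0166 to 0.0213 (Spry2). Between Hira and Ubn2 they ranged from -0.0739 to 0.247 (Dusp6) and -0.00684 to 0.168 (Spry2). Between Hira and Ubn1 they ranged from -0.0431 to 0.156 (Fgfr1), -0.155 to 0.108 (Etv4), -0.0752 to 0.169 (Etv5) and -0.637 to 0.15 (Egr1), and between Ubn2 and Ubn1 from -0.055 to 0.226 (Fgfr2).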
